A study of Homo sapiens with 4 samples.

Results

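The genes of the tight junction were examined in HaCaT cells, human keratinocytes that grow without limit in culture and serve as a model of the epidermis. The set holds 9 genes taken by symbol, 6 claudins (CLDN1, CLDN3, CLDN4, CLDN7, CLDN12 and CLDN23) and 3 partners (OCLN, TJP1 and F11R), out of 19233 protein-coding genes and 44591 genes in all. The RNA of untreated cells was sequenced in 4 libraries, labelled replicates 1 to 4, with neither a treated nor a control group. The labels give Dulbecco's modified Eagle medium with 12% fetal bovine serum and do not say whether the replicates were separate cultures. The spread between these libraries may thus be technical, and p-values refer to these libraries only. Levels are given as TPM, the reads per kilobase of gene length scaled to 1000000 over the protein-coding genes of a library, so that genes of different length can be compared.

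The tight junction seals the space between neighbouring epithelial cells and in the epidermis lies in the granular layer. Claudins are membrane proteins that polymerise into the strands of the junction and set which ions and molecules pass between cells. Occludin (OCLN) is a further membrane protein of the strands. ZO-1 (TJP1) is a scaffold in the cytoplasm that binds the tails of most claudins through a PDZ domain and ties the strands to actin. JAM-A (F11R) is an immunoglobulin-like adhesion protein that helps to place cell polarity proteins at the forming junction.

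The libraries held 17056035 to 73082279 counted reads. Replicate 1 was the deepest, and 76.1% of its reads lay on protein-coding genes, against 95.3% to 96.4% in replicates 2 to 4. Across 12165 protein-coding genes with a mean TPM above 1, called detected here, Spearman's rho lay between 0.754 and 0.780 for pairs with replicate 1 and between 0.944 and 0.967 for all other pairs. Replicate 1 thus stood apart. All 6 keratinocyte markers (KRT5, KRT14, KRT6A, TP63, SFN and PERP) were detected, with a summed TPM of 11828 to 15978. The sums were 5.20 to 9.70 for 6 fibroblast markers, 1.36 to 3.52 for 4 melanocyte markers, 0.859 to 2.36 for 3 endothelial markers and 3.53 to 8.92 for 4 leukocyte markers. TYR and PECAM1 had no counts in any library, while CD14 had 81 to 133. Single markers moved in both directions between libraries, as VWF had 507 counts in replicate 1 and at most 7 in the others, while CDH5 had 0 and 21 to 46. Of the fibroblast markers, DCN had 186 counts and LUM 172 in replicate 1 and at most 26 in the others, COL1A1 had 72 and 100 to 377, and COL3A1 had 10 and 3 to 134. Their part in the results was not tested.

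All 9 genes were detected, where 63.3% of all protein-coding genes were. In replicate 1 by itself, CLDN3 lay below this limit. Mean levels ran from CLDN7 at 358 ± 102 (SD, n = 4) to CLDN3 at 1.30 ± 0.822 (SD, n = 4). CLDN7, F11R, CLDN4 and CLDN1 lay above percentile 85 of the detected genes, TJP1 at percentile 72.6, CLDN12 at 48.2 and OCLN at 34.3, and CLDN23 and CLDN3 at 14.6 and 1.86.

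**Figure D1:**
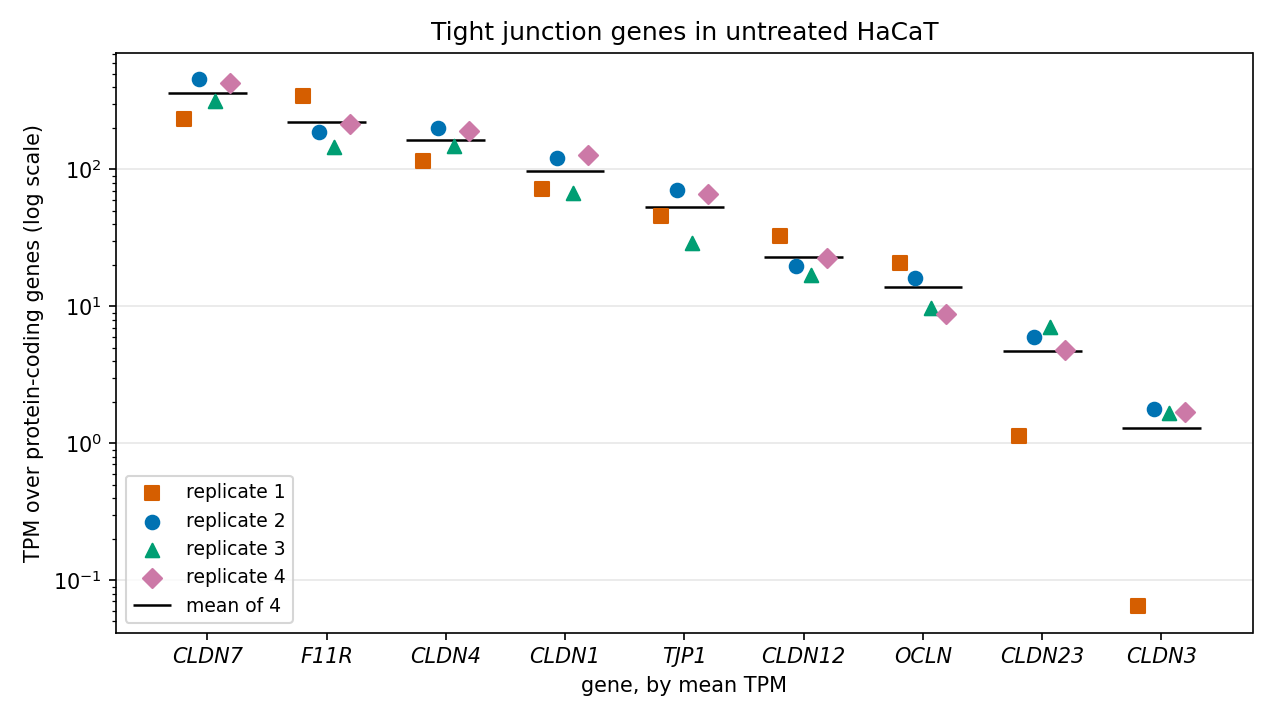
TPM over protein-coding genes (log axis) of the 9 tight junction genes in each of the 4 HaCaT libraries, ordered by mean TPM; points are replicates and the horizontal line is their mean. CLDN7 was highest in replicates 2 to 4 and F11R in replicate 1, and the 6 genes from CLDN1 downward kept the same order in every library.

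CLDN7 was the leading claudin. CLDN7 (chromosome 17, 7163222 to 7166512, minus strand; positions are those of the files, for which the submitters' processing notes name hg19) encodes a claudin that is found along the lateral membrane as well as at the junction and that binds the adhesion protein EpCAM. Across replicates 1 to 4 its TPM was 234, 454, 317 and 427 (358 ± 102, SD, n = 4), from 5830 to 11629 counts. Replicate 1 was the lowest of the libraries, below the others, which lay within 1.43-fold. The gene overlaps ELP5 on the opposite strand by 38 bases, and ELP5 had 472 to 2163 counts. Whether counting used strand is not stated, so reads of genes that overlap on opposite strands cannot be told apart here.

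CLDN4 (chromosome 7, 73245193 to 73247023, plus strand), a claudin of many barrier epithelia and a receptor for an enterotoxin of Clostridium perfringens, had a TPM of 163 ± 39.4 (SD, n = 4). Replicate 1 gave 114, replicate 2 gave 200.4, replicate 3 gave 149 and replicate 4 gave 189.6. Per kilobase, replicate 1 held 2.04 reads of CLDN7 for each read of CLDN4 (95% Clopper-Pearson interval 1.98 to 2.11), replicate 2 held 2.26 (2.16 to 2.37), replicate 3 held 2.13 (2.04 to 2.24) and replicate 4 held 2.25 (2.15 to 2.36). The ratio of these claudins thus varied little while both levels were lowest in replicate 1, although the intervals of replicates 1 and 2 did not overlap. These ratios use the deposited lengths. With the longest protein-coding transcript as the length, the mean TPM was 443 for CLDN7 and 83.5 for CLDN4. No molecular identifiers are given for these reads, so the intervals here and below cover counting error only.

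CLDN3 (chromosome 7, 73183327 to 73184600, minus strand) encodes another enterotoxin receptor, closely related to CLDN4, and its gene lies 60592 bases from CLDN4. Replicates 1 to 4 held 2, 15, 19 and 16 counts of it, a TPM of 0.0646, 1.77, 1.66 and 1.69. With the deposited lengths, CLDN3 was thus the lowest of the 9 genes, while its neighbour CLDN4 was among the 3 highest in every library. With the longest protein-coding transcript as the length (4163 bases for CLDN4 in place of 1831), the mean TPM was 83.5 for CLDN4, 112 for CLDN1 and 1.51 for CLDN3. The ratios that follow use the deposited lengths and would be smaller with that length. Per kilobase, CLDN4 had 113 times the reads of CLDN3 in replicate 2 (68.5 to 203), 89.6 times (57.3 to 149) in replicate 3 and 112 times (69.1 to 197) in replicate 4. In replicate 1 the 2 counts of CLDN3 lay under the 3 counts taken as the limit of detection, and the ratio was 1772 with a wide interval (490.3 to 14638).

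The sequences before the start of CLDN4 and CLDN3 are shown because these neighbouring genes lay far apart in level. They are the 250 bases before the start that RefSeq gives on GRCh38.p14, 5′ to 3′ on the strand of the gene, at chr7:73830746-73830995 (plus strand) for CLDN4 and chr7:73770271-73770520 (minus strand) for CLDN3. These positions are on another build than those of the files. Capitals mark GGGCGG, the GC box bound by SP and KLF factors, on either strand.

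CLDN4: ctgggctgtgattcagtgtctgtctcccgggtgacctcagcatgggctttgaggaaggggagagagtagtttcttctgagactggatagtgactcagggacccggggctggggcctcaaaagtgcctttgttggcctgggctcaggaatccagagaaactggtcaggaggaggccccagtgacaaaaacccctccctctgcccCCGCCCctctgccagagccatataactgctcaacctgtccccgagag

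CLDN3: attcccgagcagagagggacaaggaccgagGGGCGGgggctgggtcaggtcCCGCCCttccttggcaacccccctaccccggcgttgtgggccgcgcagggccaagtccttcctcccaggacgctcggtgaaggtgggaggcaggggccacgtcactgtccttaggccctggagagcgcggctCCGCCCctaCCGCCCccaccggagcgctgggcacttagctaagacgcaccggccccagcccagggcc

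The CLDN3 window held 4 matches of GGGCGG and 19 CG dinucleotides, with a GC content of 71.6%. The CLDN4 window held 1 match, 4 CG dinucleotides and a GC content of 58.8%. Of 35116 RefSeq windows of this length, 42.6% held GGGCGG, and the median was 11 CG dinucleotides and 58% GC. CAGGTG, an E-box bound by Snail factors (17.5% of windows), TATAAA (10.7%), CCAAT (32.0%) and AACCNGTT, a Grainyhead-type motif (1.49%), were in neither window on either strand. The start of CLDN4 differs between annotations: the RefSeq start lies 133 bases into the transcript CLDN4-201 of GENCODE release 29, and 2420 and 2474 bases into 2 other CLDN4 transcripts, so that the window shown lies before only 1 of several annotated starts. A match of letters does not show that a factor was bound. RefSeq windows were found for 7 of the 9 genes, all but CLDN23 and F11R.

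CLDN1 (chromosome 3, 190023490 to 190040235, minus strand) encodes the claudin most closely tied to the water barrier of the epidermis, as mice without it die of water loss after birth. Across replicates 1 to 4 its TPM was 72.03, 121, 67.0 and 128 (96.9 ± 31.8, SD, n = 4). Replicates 2 and 4 were high and replicates 1 and 3 low. The reads of CLDN7 per kilobase were 3.25 times those of CLDN1 (3.15 to 3.35) in replicate 1. The ratio was 3.76 (3.59 to 3.93) for replicate 2, 4.74 (4.51 to 4.98) for replicate 3 and 3.34 (3.21 to 3.49) for replicate 4.

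CLDN12 (chromosome 7, 90032648 to 90045268, plus strand) encodes a claudin whose tail lacks the usual PDZ-binding end. Its TPM was 32.8 in replicate 1, and then 19.5, 17.0 and 22.6 (23.0 ± 6.95, SD, n = 4). Here replicate 1 was the highest library. A processed transcript without a symbol, ENSG00000273299.1, overlaps it on the same strand and had at most 13 counts.

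CLDN23 (chromosome 8, 8559666 to 8561617, plus strand), an intronless claudin gene, had 54, 77, 124 and 70 counts. Its TPM was 1.14 in replicate 1, and then 5.93, 7.07 and 4.81 (4.74 ± 2.57, SD, n = 4). Replicate 1 was far below the range of the others.

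The 6 claudins together reached a summed TPM of 455, 802, 559 and 773 across the replicates (647 ± 168, SD, n = 4). Within this sum, the shares of CLDN7 and CLDN4 varied little and that of CLDN1 somewhat more. The shares use the deposited lengths. With the longest protein-coding transcript as the length, the mean TPM was 83.5 for CLDN4 and 112 for CLDN1. CLDN7 took 51.5% of the sum in replicate 1 and 55.2% to 56.8% in the others (55.02% ± 2.45, SD, n = 4), CLDN4 25.2% and 24.5% to 26.6%, and CLDN1 15.8% and 12.0% to 16.5%. The shares of the lower claudins varied more, with 7.22% in replicate 1 and 2.44% to 3.04% in the others for CLDN12, 0.250% and 0.622% to 1.26% for CLDN23, and 0.0142% and 0.218% to 0.297% for CLDN3.

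**Figure D2:**
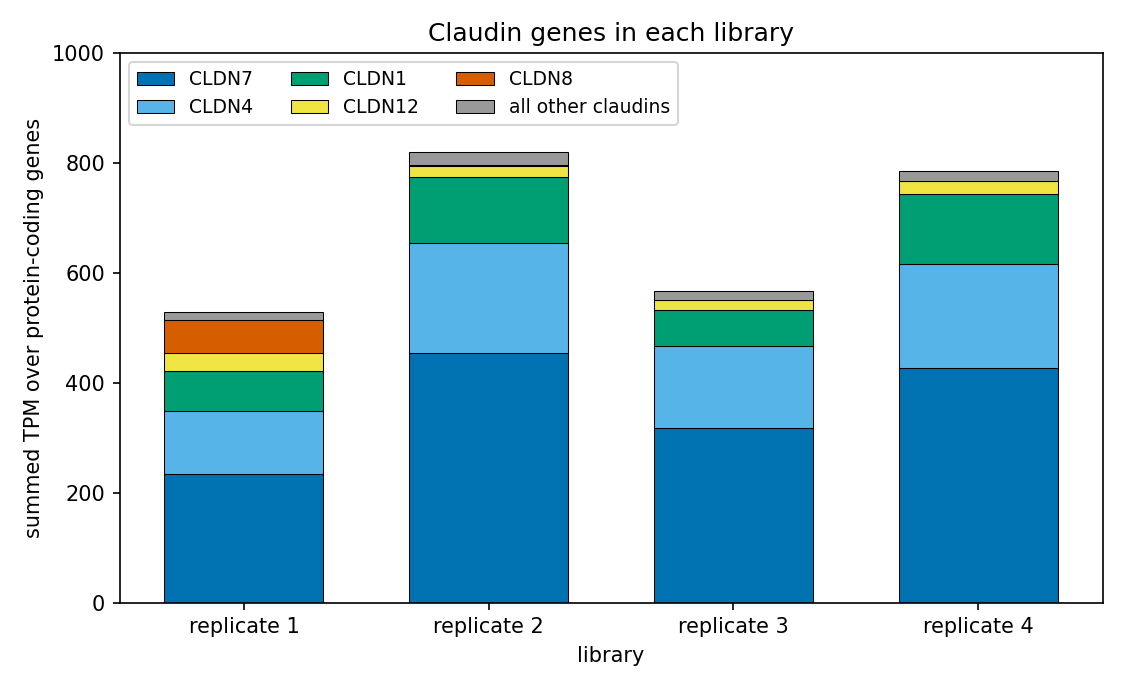
Summed TPM of the claudin genes in each library with the deposited lengths, stacked as CLDN7, CLDN4, CLDN1, CLDN12, CLDN8 and all others. CLDN7, CLDN4 and CLDN1 made up 94.1% to 94.8% of all claudin TPM in replicates 2 to 4 and 79.6% in replicate 1, where CLDN8 took 11.7%.

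Among the partners, F11R was the highest. F11R (chromosome 1, 160964996 to 160991133, on the minus strand) reached 344 TPM in replicate 1, and then 189, 145 and 214 (223 ± 85.4, SD, n = 4). Its 40360 counts in replicate 1 made it the highest of the 9 genes there. Without replicate 1 its mean was 182 ± 34.8 (SD, n = 3), against 179.6 ± 27.3 for CLDN4.

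TJP1 (chromosome 15, 29991571 to 30261002, on the minus strand) measured 45.9, 71.0, 28.98 and 66.0 TPM across replicates 1 to 4 (53.0 ± 19.3, SD, n = 4). As with CLDN1, replicates 2 and 4 were high, and replicate 3 was the lowest. It has the longest model of the 9 genes, 8557 bases. In replicate 3, long genes as a whole were lower than in replicates 2 and 4, but the 9 genes did not follow their length throughout. The median difference in log2(TPM + 1) between replicate 3 and the mean of replicates 2 and 4 was 0.092 over the 3039 detected genes of up to 2099 bases and -0.70 over the 3042 of at least 4973 bases, while TJP1 had -1.21. CLDN1, with a length of 3452 bases, had -0.88 against a median of -0.39 for genes of 3276 to 4972 bases. OCLN, with 6576 bases, had -0.27, and the short CLDN7, with 2044 bases, had -0.47. The part of gene length in these values was not tested. Of the genes that overlap TJP1, the pseudogene HMGN2P5 had 32 to 137 counts, the antisense gene ENSG00000259523.1 had 11 to 28 and the intronic ENSG00000259644.1 had 4 to 37, against 2229 to 9552 for TJP1.

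OCLN (chromosome 5, 68788119 to 68853931, on the plus strand) measured 20.8, 16.2, 9.75 and 8.72 TPM across replicates 1 to 4 (13.9 ± 5.70, SD, n = 4). It was the lowest of the partners in every library, and its antisense gene ENSG00000249295.1 had no counts. The value of replicate 4 was low for OCLN, at percentile 4.13 of the detected genes for the difference between replicate 4 and the other replicates. MARVELD2 (tricellulin), a relative of occludin found where 3 cells meet, had 1.54 to 2.42 times its reads per kilobase.

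The order of the 9 genes by mean TPM was CLDN7, F11R, CLDN4, CLDN1, TJP1, CLDN12, OCLN, CLDN23 and CLDN3. CLDN7 was the highest in 3 of 4 replicates, and the 6 genes from CLDN1 downward held their place in all 4. Kendall's coefficient of concordance over the replicates, which is 1 for the same order everywhere, was 0.981. For each of the 8 neighbouring pairs, the difference in log2(TPM + 1) within replicates was tested with a two-sided exact sign-flip permutation test, which with 4 replicates cannot go below p = 0.125. The 6 pairs from CLDN4 and CLDN1 downward had the same sign in 4 of 4 replicates and reached this smallest value of the exact test (adjusted p = 0.167 over the 8 pairs).

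CLDN7 was above CLDN4 in 4 of 4 replicates, while the place of F11R depended on the library and on the gene length. CLDN7 exceeded F11R by 0.71 ± 0.85 (SD, n = 4; exact permutation test, p = 0.25, adjusted p = 0.286), with -0.55 in replicate 1 and 1.00 to 1.26 in the others. F11R exceeded CLDN4 by 0.41 ± 0.79 (SD, n = 4; exact permutation test, p = 0.5), with 1.58 in replicate 1 and -0.086 to 0.17 in the others. Without replicate 1 these differences were 1.13 ± 0.13 and 0.016 ± 0.14 (SD, n = 3). With the longest protein-coding transcript as the length, F11R exceeded CLDN4 by 1.58 ± 0.79 (SD, n = 4; exact permutation test, p = 0.125, the smallest possible), and without length correction by 1.80 ± 0.79. Per kilobase, replicate 1 held 3.0 reads of F11R for each read of CLDN4 (2.91 to 3.09), replicate 2 held 0.942 (0.898 to 0.987), replicate 3 held 0.975 (0.930 to 1.02) and replicate 4 held 1.13 (1.08 to 1.18). With the deposited lengths both genes were thus near the same level in replicates 2 to 4, and in replicate 1 they lay far apart.

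Further down, CLDN4 exceeded CLDN1 by 0.77 ± 0.25 (SD, n = 4) and CLDN1 exceeded TJP1 by 0.88 ± 0.24, in each case by more than the spread between replicates. The first of these rests on the gene length. With the longest protein-coding transcript of GENCODE release 29 (4163 bases for CLDN4 in place of 1831), the mean TPM of CLDN4 was 83.5 and the difference was -0.39 ± 0.25. TJP1 exceeded CLDN12 by 1.13 ± 0.63, with 0.47 in replicate 1, and CLDN12 exceeded OCLN by 0.73 ± 0.42, with 0.63 in replicate 1. OCLN exceeded CLDN23 by 1.45 ± 1.32, which ranged from 0.41 in replicate 3 to 3.35 in replicate 1, and CLDN23 exceeded CLDN3 by 1.26 ± 0.26.

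Replicate 1 lay below the range of replicates 2 to 4 for 4 genes, CLDN3, CLDN4, CLDN7 and CLDN23, and above it for 3 genes, CLDN12, OCLN and F11R. Of all detected genes, 37.4% lay below and 40.2% above, so that the share of these 9 was near the background. On the log2(TPM + 1) scale, replicate 1 minus the mean of replicates 2, 3 and 4 gave -1.69 for CLDN23, -1.35 for CLDN3, -0.75 for CLDN7 and -0.63 for CLDN4. It was 0.93 for F11R, 0.85 for OCLN and 0.72 for CLDN12. CLDN1 at -0.48 and TJP1 at -0.16 stayed within the range of the other replicates. The median of the 9 was -0.48, against 0.034 over all detected genes.

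The GC content of the transcripts moved with these differences. The 4 claudins that were low in replicate 1 had 57.5% to 69.2% GC and the 3 genes that were high had 38.1% to 47.6%, with a median of 49.1% over detected genes. Spearman's rho between GC content and this difference was -0.78 across the 9 genes and -0.51 across 11889 detected genes. These are descriptions across genes of the same libraries. With each library centred within 20 bins of GC content, the difference was 0.041 for CLDN4, -0.069 for CLDN12, 0.15 for OCLN and -0.24 for CLDN7. It was 0.94 for F11R, -1.06 for CLDN1, -1.11 for CLDN23, -0.43 for CLDN3 and -0.22 for TJP1 after the same step. Replicate 1 then lay above the range of the other replicates for 1 gene in place of 3, and below it for 4 genes. These were not the same 4 genes as before centring, since CLDN4, at 0.041, was no longer below the range.

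**Figure D3:**
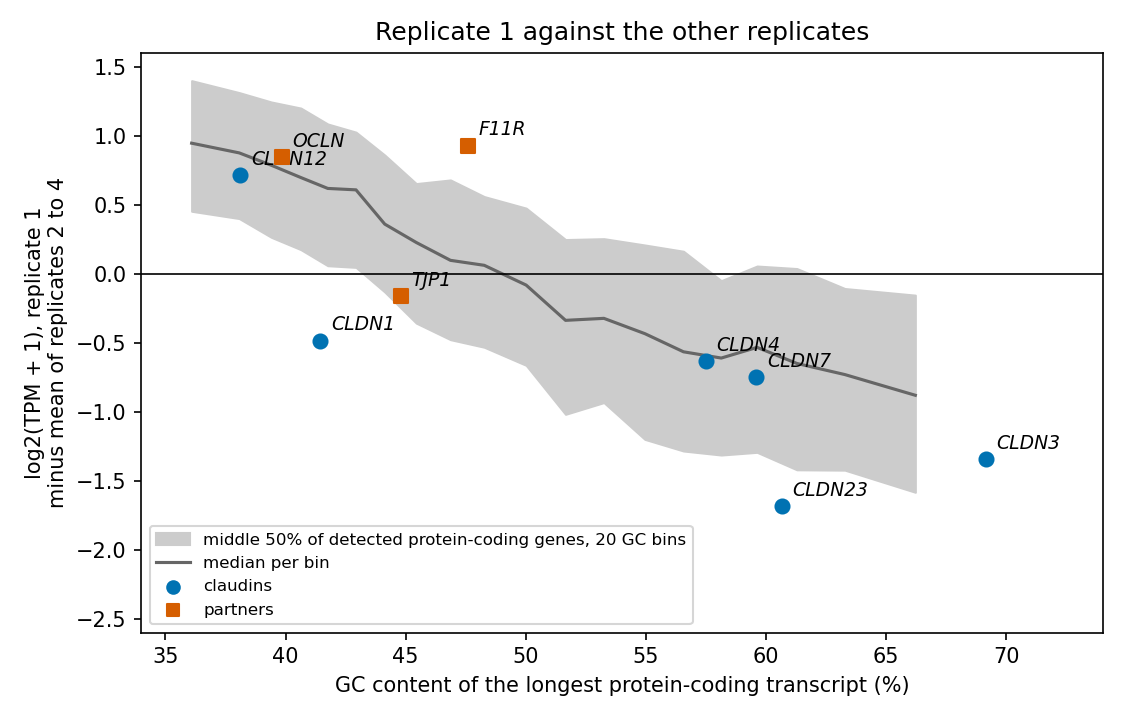
Difference in log2(TPM + 1) between replicate 1 and the mean of replicates 2 to 4 (vertical axis) against the GC content of the longest protein-coding transcript in percent (horizontal axis); points are the 9 genes, the line and band are the median and the middle 50% of detected protein-coding genes in 20 bins. CLDN4, CLDN7, CLDN12 and OCLN lay close to the line, while F11R lay above it and CLDN1 and CLDN23 below.

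The direction in replicate 1 also depended on the scaling. In TPM over all genes, where other classes of RNA count toward the total, the median of detected genes in replicate 1 shifted to -1.27, and all 9 genes lay below the range of the other replicates. F11R was then at -0.60, CLDN12 at -0.73 and OCLN at -0.56, each above that median. The share of all detected genes below the range was not computed under this scaling. The count of 9 is thus not a result about these genes in particular.

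In replicates 2 to 4 the ratio of the highest to the lowest value had a median of 1.47 over the 9 genes, against 1.62 over all detected genes. It was 1.07 for CLDN3, 1.33 for CLDN12, 1.35 for CLDN4, 1.43 for CLDN7, 1.47 for CLDN23 and F11R, 1.86 for OCLN, 1.91 for CLDN1 and 2.45 for TJP1. With replicate 1 the medians were 2.37 and 2.43. TJP1, CLDN1 and OCLN thus varied most among these 3 libraries.

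The genes with the pattern over replicates most like that of a leading gene were taken by the distance between values of log2(TPM + 1) centred over the 4 replicates. For CLDN7 they were FIBCD1 (0.040), PRSS23 (0.042) and NFKBID (0.044). For F11R they were PFKFB2 (0.041), KDM4A (0.062) and CYLD (0.067). With 4 replicates of one condition, such a likeness describes these libraries.

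The remaining genes of the junction were taken from lists by role, 55 genes in all. Of these, 33 were detected, beside 63.3% of all protein-coding genes. The counts of detected genes by list below stand beside the same share. Of 17 other claudins 4 were detected. CLDN8, a claudin of the distal nephron and other epithelia, had a TPM of 61.6 in replicate 1 from 3212 counts, and 1.40, 0.311 and 0.688 in replicates 2 to 4 from 20, 6 and 11 counts. CLDN8 in replicate 1 was 43.9 times the highest of the other libraries and stood above CLDN12 there. CLDN17, which lies 47352 bases from CLDN8 on chromosome 21, had 85 counts in replicate 1 and 2, 6 and 1 in the others. CLDN15 had a TPM of 5.69 in replicate 1 and 4.31 to 7.98 in the others. CLDN20 ranged from 1 count in replicate 1 to 26 in replicate 2. No counts were found for CLDN10, CLDN19 and CLDN25, and CLDN5, CLDN6, CLDN18 and CLDN24 had at most 3 counts in each library.

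Of the MARVEL proteins and angulins, 4 of 5 were detected. LSR, the angulin that recruits tricellulin to the contacts of 3 cells, had a TPM of 31.3 in replicate 1 and 178, 146 and 147 in the others. MARVELD2 had 32.1 in replicate 1 and 18.1 to 27.3 in the others, and MARVELD3 10.1 in replicate 1 and 21.9 to 22.4 in the others. ILDR1, another angulin, had 2.92 in replicate 1 and 0.886 to 3.11 in the others. LSR was thus the most abundant of this group in replicates 2 to 4, while in replicate 1 it was level with MARVELD2.

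Of the immunoglobulin-like adhesion proteins, 2 of 5 were detected beside F11R. CXADR, which also serves as a virus receptor, had a TPM of 37.6 in replicate 1 and 7.59 to 13.1 in the others. JAM3 had 0.864 in replicate 1 and 1.88 to 3.24 in the others. JAM2 and ESAM had at most 7 counts in any library, and F11R was the highest of the 3 JAM genes in every library.

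Of the plaque scaffolds, 8 of 10 were detected. SYMPK, a plaque protein that also acts in RNA processing, had a TPM of 18.9 in replicate 1 and 67.5 to 91.1 in the others, PATJ 46.9 and 11.4 to 24.1, and cingulin (CGN) 14.03 and 14.5 to 26.4.

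All 8 genes of the polarity complexes were detected, beside 63.3% of protein-coding genes, and in 7 of them replicate 1 lay above the range of the others, beside 40.2% of detected genes. PRKCI, an atypical protein kinase C, had a TPM of 96.4 in replicate 1 and 30.2 to 54.0 in the others, and PARD3, the polarity scaffold that binds JAM-A, had 56.9 and 14.5 to 30.2. PRKCZ had 39.96 and 25.4 to 36.9. CRB3, the Crumbs protein of epithelia, had 53.4, 52.7, 52.7 and 50.3, so that it counted among the 7 although its highest value was 1.06 times its lowest.

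Of the genes that stabilise claudins or regulate them, 7 of 10 were detected. EPCAM, which binds claudin-7, was lowest in replicate 1, with a TPM of 145 there and 208 to 231 in the others. YBX3 (ZONAB), a transcription factor that is held at the junction by ZO-1, had 112 in replicate 1 and 368 to 443 in the others. GRHL2, an activator of CLDN4 transcription in epithelia, had 81.8 in replicate 1 and 30.6 to 49.96 in the others. Over all lists, replicate 1 lay below the range of the others in 12 of the 33 detected genes and above it in 16, beside 37.4% and 40.2% of all detected genes. The 16 include CLDN8 and CLDN17, which were detected only through replicate 1. The 12 include CLDN20, detected only through replicate 2, and another gene detected only through replicate 4.

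**Figure D4:**
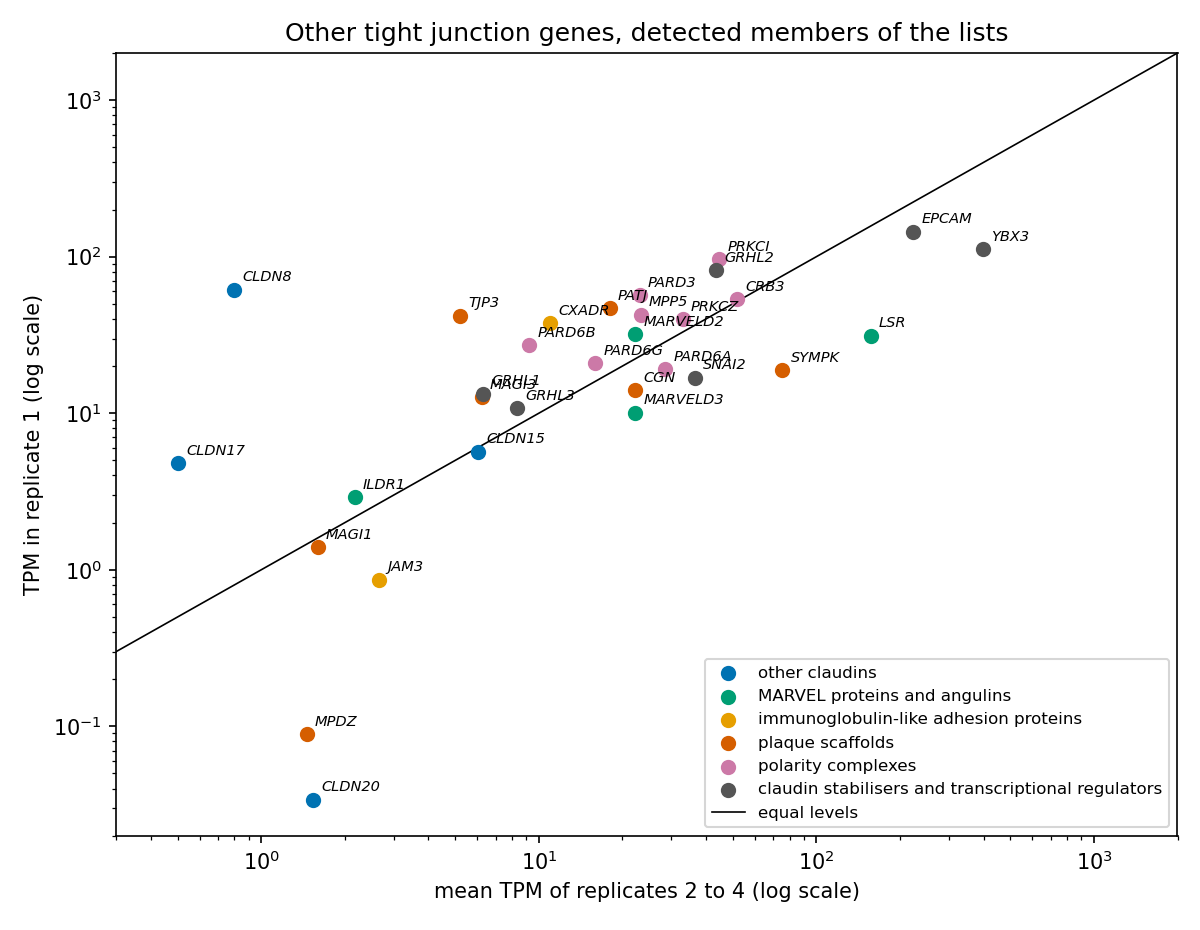
TPM in replicate 1 (vertical, log axis) against the mean TPM of replicates 2 to 4 (horizontal, log axis) for detected genes of the lists, coloured by list; the line marks equal levels. CLDN8, CLDN17 and TJP3 lay far above the line, and CLDN20 lay farthest below it. LSR, SYMPK and YBX3 also lay below it.

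Single values far from the others were sought with Dixon's test at the 95% limit. Of the 9 genes, CLDN3 passed it, for replicate 1, where 9.82% of all detected genes had such a value in some replicate.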

How the data were processed

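RNA-seq counts of 4 replicates of untreated HaCaT were analysed as 1 group, with replicate numbers from the sample labels. The authors deposited raw counts and a length for each of 44591 genes, with RPKM for replicates 1 and 2 and TPM for replicates 3 and 4. The submitters' processing notes name HISAT2, HISAT, TopHat2, Bowtie2 and hg19. The counting program, the annotation, the use of strand and the selection of RNA are not given in the sources used here. As the deposited RPKM and TPM are different units, TPM was recomputed in each replicate over protein-coding genes, using the counts and lengths as deposited.

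With 1 condition, no differential expression was tested. Pairs were tested with exact sign-flip permutation tests, and ratios of counts were given with 95% Clopper-Pearson intervals. A pseudocount of 1 was added on the log2 scale, which understates differences of low genes. Counts of 3 or fewer were taken as the limit of detection, which is 0.0539 counts per 1000000 protein-coding counts in replicate 1 and 0.159 to 0.185 in the others. No pair of libraries had the same count in more than 0.608% of detected genes. GC content is that of the longest protein-coding transcript of GENCODE release 29, found for 97.7% of detected genes. Scripts were tested on simulated data.

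The 9 genes were given by symbol, and genes and lists were chosen with earlier results of these data known. Of the lists, the 4 highest genes by mean TPM and the other claudins with at most 3 counts in every library were named. For the leading claudin and the leading partner, the 3 detected genes nearest in pattern were named, and so were genes that overlap a member. The others were counted only, and a few listed genes are not reported here. Alternatives were scaling, gene length, pseudocount, detection limit, GC centring and leaving out each replicate. Tests were run with SciPy 1.17.1, tables with pandas 2.3.3 and NumPy 2.4.6, and plots with matplotlib 3.10.9, under Python 3.11.15.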

Additional observations from a re-analysis of the deposited data

Results flagged for a closer look

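The sets of 4 values were the 9 genes, their claudin sum and 24 listed genes that met the rule for named genes. Each of the 24 had more than 3 counts in a library. The other listed genes, TJP3 among them, were not in these sets. Among the 34 sets, 4 had 1 replicate farther from the rest than Dixon's 95% limit allows. Chance gives 1.7, or 1 in 20. Of all detected genes 9.82% passed this limit, and 4 of 34 is near that share. All 4 were in replicate 1. The TPM of CLDN3 was 0.0646 there against 1.66 to 1.77 in the others, from 2 counts. CLDN8 was at 61.6 against at most 1.40. CLDN17, the neighbour of CLDN8, was at 4.79 against at most 0.913. Both CLDN8 and CLDN17 were called detected, and so named, only through their values in replicate 1. MARVELD3 was at 10.1 against 21.9 to 22.4. The sets share the same libraries and are not independent, and no cause was tested.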

How the results depend on the processing

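Since there is 1 condition, differences are between genes or libraries. The value of CLDN3 in replicate 1 rests on 2 counts, although that library was the deepest. No paired analysis was possible because there is 1 group and thus no second group with the same replicate numbers. Pairs of genes were compared within replicates. Median-of-ratios size factors, upper quartile scaling and pseudocounts of 0 and 0.1 turned no direction. With either scaling 5 genes in place of 4 lay below the range in replicate 1, and 6 did without replicate 3. For such counts under the alternative settings, no share over all detected genes was computed. For CLDN3 in replicate 1, a pseudocount of 0 gave -4.72 in place of -1.35. For reads scaled to the library total without length correction, CLDN7 was the highest gene in 1 of 4 replicates in place of 3 and 2 genes in place of 6 held their rank in every replicate. That setting turned CLDN7 minus F11R to -0.53, CLDN4 minus CLDN1 to -0.13, CLDN1 minus TJP1 to -0.41 and CLDN12 minus OCLN to -0.067. Transcript length turned CLDN4 minus CLDN1 to -0.39 and moved F11R minus CLDN4 from 0.41 to 1.58. For replicate 1 against the others, TPM over all genes gave 9 genes below the range and 0 above, and turned CLDN12 to -0.73, OCLN to -0.56 and F11R to -0.60. GC centring left 1 gene above the range and turned CLDN4 to 0.041 and CLDN12 to -0.069. Leaving out replicate 2 or 4 turned TJP1 to 0.067 or 0.015. Leaving out each replicate in turn changed no other direction, and the mean claudin sum was 596 to 711. With any count taken as detection, 50 of 55 listed genes were detected in place of 33. The cause was not tested where none is given.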

Other observations

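TJP3 (ZO-3), a scaffold of epithelia related to ZO-1, was outside the rule for named genes and was chosen after its values were seen. It had 3394 counts in replicate 1 and 133, 88 and 167 in replicates 2 to 4, a TPM of 41.9 against 5.999, 2.94 and 6.72. The first value is 6.23 times the next highest. Its transcript has 63.2% GC. Among genes of similar GC content, replicate 1 was the lowest library for some, such as CLDN7, CLDN23 and LSR. It was the highest for others, such as PRKCZ and CRB3. After centring within GC bins the difference in log2(TPM + 1) was 3.56 for TJP3. The part of GC content in these values was not tested. CLDN8, with 37.2% GC, had 4.29 after the same step.

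SNAI2 (Slug), a repressor of claudin and occludin genes, had a TPM of 16.8 in replicate 1 and 45.1, 27.1 and 37.2 in replicates 2 to 4, while SNAI1, ZEB1 and ZEB2 had at most 12 counts in any library. These genes too were chosen after their values were seen.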
